A study of Mus musculus with 36 samples.

Results

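Granulocyte-macrophage progenitors (GMP) from the bone marrow of wild-type mice were compared after OMV-SIRP-G and after OMV-SIRP, with 3 RNA sequencing libraries in each group. The 6 libraries were taken by their labels from the 36 of the whole series, and the comparison covered 12287 of the 56026 gene models in the table that GMP share with monocytes. The remaining genes had fewer than 3 GMP libraries at 1 FPKM (fragments counted on a gene, scaled for its length and for the depth of the library) or more. The groups were OMV-SIRP-G, OMV-SIRP and phosphate-buffered saline (PBS), all in animals of genotype WT. PBS libraries entered the fit so that all groups shared an estimate of the spread, and their levels are given beside the comparison. The labels name the treatments without describing their composition, dose or timing, and give neither the age of the animals nor a sorting scheme. The design text speaks of pooling 3 samples of each group, and does not settle whether a library holds RNA of 1 animal or of several. P-values therefore measure the spread between these libraries, which may be technical.

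GMP are committed bone marrow progenitors that give rise to neutrophils and to monocytes, and smaller numbers of eosinophil and basophil precursors arise beside them. Along the neutrophil branch the cells first make primary granule proteases, then secondary granule proteins under the control of Cebpe, and stop dividing as they mature. Monocytic commitment depends on Irf8, Klf4 and related factors. The treatment names carry the letters SIRP, which the labels do not explain. Sirpa is an inhibitory receptor of myeloid cells whose ligand is Cd47.

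Libraries of GMP held 15218182 to 19822660 reads assigned to genes. Log2 expression correlated at 0.987 to 0.988 between OMV-SIRP-G libraries, 0.985 to 0.989 between OMV-SIRP libraries and 0.980 to 0.989 between PBS libraries, against 0.974 to 0.982 across OMV-SIRP-G and OMV-SIRP. The 10 most abundant genes took 7.43% to 7.48% of reads in OMV-SIRP-G libraries, 8.97% to 8.99% in OMV-SIRP libraries and 6.17% to 7.29% in PBS libraries. Progenitor markers were present. Kit, the stem cell factor receptor, averaged 21.4 FPKM after OMV-SIRP-G and 20.7 FPKM after OMV-SIRP. The primary granule enzyme Mpo averaged 1519 FPKM after OMV-SIRP-G and 1448 FPKM after OMV-SIRP. Transcripts of later neutrophils were also abundant, since S100a9 reached 14210 to 15860 FPKM after OMV-SIRP-G and 23050 to 25620 FPKM after OMV-SIRP. Most lymphoid and erythroid markers were low: 13 of 16 T and NK genes, 9 of 13 B lineage genes and 9 of 14 erythroid genes lay under 1 FPKM in all 6 libraries. Others were not. Nkg7 of the T and NK list averaged 112 FPKM after OMV-SIRP-G and 104 FPKM after OMV-SIRP. In the B lineage list Ighm averaged 43.8 and 35.5 FPKM, and Cd79b 11.8 and 12.05 FPKM, in the same order. The lowest PBS library, replicate 1, differed from its group, with 37520 FPKM summed over secondary granule and mature neutrophil genes, where the highest PBS library had 51250 FPKM.

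After OMV-SIRP-G, GMP had lower levels of glycolytic enzymes, hypoxia-response genes, mitotic genes and most secondary granule genes than after OMV-SIRP. Immediate-early transcription factors, several chemokines, lysosomal proteases and many, but not all, markers of macrophages and monocytes were higher. In all, 1821 genes (14.8% of those tested) passed an adjusted p of 0.05 in limma, of which 823 (6.7%) were higher and 998 (8.12%) were lower after OMV-SIRP-G. Counts given below for gene lists are to be read against these shares. Most changes were small: 184 of the genes that rose and 118 of those that fell changed by at least 1.5-fold on the log2(FPKM + 1) scale, and 48 and 13 by at least 2-fold. The median log2 change of all genes tested was -0.01, with 5% of genes below -0.42 and 5% above 0.41. The values of the groups did not overlap for 5040 genes (41.0%), many more than passed the test. In bulk RNA, a change in the number of cells of a type and a change in RNA per cell cannot be told apart.

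The split into higher and lower genes depended on the scaling between libraries. The deposited FPKM already carried a scaling that divided OMV-SIRP-G libraries by 1.10 to 1.12 and OMV-SIRP libraries by 1.04 to 1.05. Scaled to total reads instead, 1337 genes were higher and 604 lower. All 823 higher calls and 604 of the 998 lower calls held, and no call took the opposite direction. Single libraries also moved the counts. Without PBS replicate 1, 1114 genes were higher and 1602 lower, and without OMV-SIRP replicate 2, 503 were higher and 565 lower. The total called, 1821 with all libraries, fell to 1131 without OMV-SIRP-G replicate 1, 1159 without OMV-SIRP-G replicate 2, 1068 without OMV-SIRP replicate 2 and 1094 without OMV-SIRP replicate 3. Across the single left-out libraries, 403 higher and 473 lower genes were called every time.

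**Figure D1:**
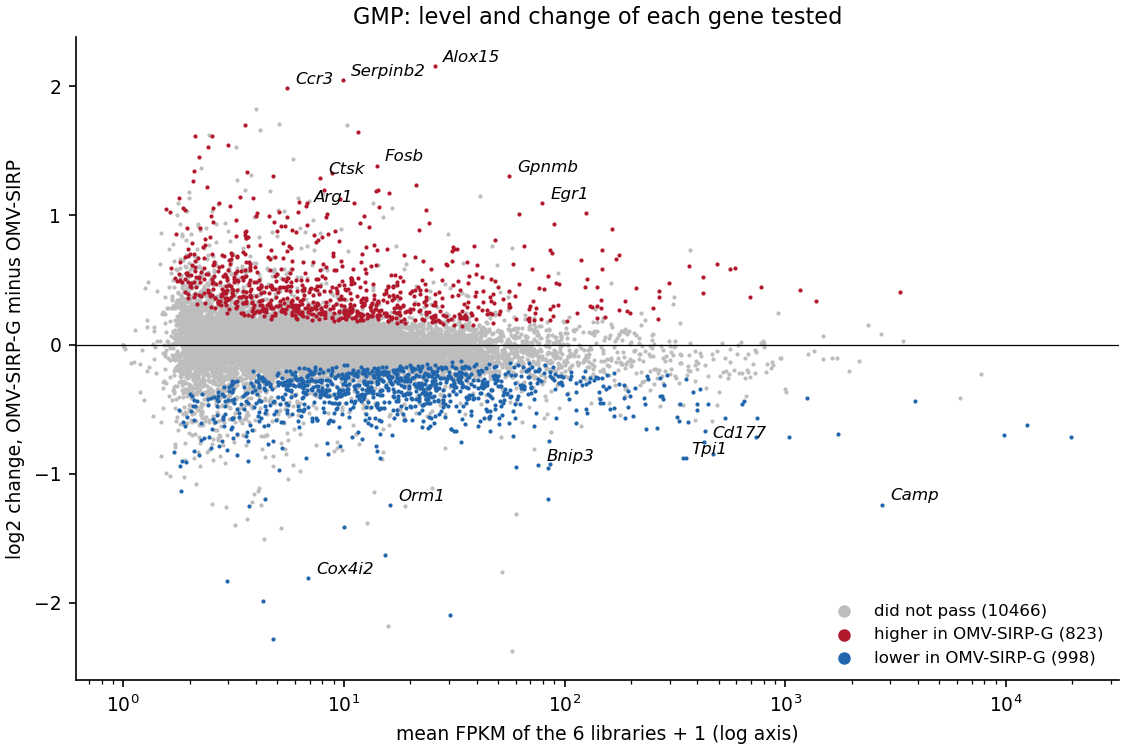
Mean FPKM of the 3 OMV-SIRP-G and 3 OMV-SIRP libraries plus 1 (horizontal, log axis) against the log2 change of OMV-SIRP-G minus OMV-SIRP (vertical) for the 12287 genes tested in GMP. Red points are the 823 genes that rose after OMV-SIRP-G, blue points the 998 that fell and grey points those that did not pass; the granule gene Camp stands out as an abundant gene that fell by 1.24.

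The 15 largest rises among protein-coding genes with a mean of at least 5 FPKM and no overlap of the groups held a lipoxygenase, a protease inhibitor, cathepsins and immediate-early genes. Alox15, a lipoxygenase that oxygenates arachidonic and linoleic acid and is abundant in eosinophils and some macrophages (chromosome 11, 70344152 to 70352031, minus strand), had 42.6, 41.6 and 39.6 FPKM after OMV-SIRP-G, against 9.22, 7.63 and 8.61 FPKM after OMV-SIRP. PBS libraries were higher than both, at 75.7, 78.8 and 79.8 FPKM. The log2 change between OMV-SIRP-G and OMV-SIRP was 2.16 ± 0.06 (SE, adjusted p = 3.9e-07), a 4.86-fold ratio of mean FPKM.

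Serpinb2, an inhibitor of plasminogen activators (chromosome 1, 107511423 to 107535478, plus strand), had 14.7, 15.7 and 14.6 FPKM after OMV-SIRP-G and 2.82, 2.84 and 2.91 FPKM after OMV-SIRP. Its level after OMV-SIRP-G lay near that after PBS, at 15.1, 17.5 and 15.3 FPKM, and the log2 change was 2.05 ± 0.06 (adjusted p = 3.9e-07). Gpnmb, a glycoprotein of lysosomes and lipid-loaded macrophages, followed another order, with 76.7, 78.0 and 81.8 FPKM after OMV-SIRP-G, 31.8, 32.6 and 29.7 FPKM after OMV-SIRP and 13.2, 13.6 and 13.2 FPKM after PBS. Its log2 change was 1.30 ± 0.05 (adjusted p = 1.3e-06). Ctsk, a lysosomal cysteine protease, was ordered likewise, with 10.4, 10.1 and 9.84 FPKM after OMV-SIRP-G, 3.54, 3.24 and 3.84 FPKM after OMV-SIRP and 0.915, 1.20 and 1.12 FPKM after PBS. It had a log2 change of 1.29 ± 0.07 (adjusted p = 2.2e-05).

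Arg1, the arginase that hydrolyses arginine to ornithine and urea, was low in all groups. It had 7.77, 7.69 and 8.83 FPKM after OMV-SIRP-G and 2.80, 3.16 and 4.08 FPKM after OMV-SIRP. PBS libraries were lower than both, at 0.239, 0.102 and 0.184 FPKM. The log2 change between OMV-SIRP-G and OMV-SIRP was 1.07 ± 0.11 (adjusted p = 0.00035). Pla2g7, a phospholipase that degrades platelet-activating factor, and Lgmn, an asparaginyl endopeptidase of lysosomes, rose by 1.24 and 1.20. C3ar1, the receptor for complement fragment C3a, rose by 1.10, and so did Il1b and Anpep, each by 1.09. The other rises of this set were Fosb (1.39), Ms4a4a (1.33), Dusp5 (1.17), Nr4a1 (1.12) and Egr1 (1.09).

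Among the 15 largest falls were secondary granule genes and genes of the response to low oxygen. Cox4i2, an isoform of a cytochrome c oxidase subunit that is induced by hypoxia (chromosome 2, 152754173 to 152765037, plus strand), had 2.08, 1.73 and 2.43 FPKM after OMV-SIRP-G, against 9.82, 9.10 and 10.3 FPKM after OMV-SIRP. PBS libraries lay between, at 4.79, 5.88 and 5.72 FPKM, and the log2 change was -1.81 ± 0.10 (adjusted p = 1.7e-05). Camp, the precursor of the antimicrobial peptide of secondary granules (chromosome 9, 109847379 to 109849617, minus strand), had 1663, 1653 and 1568 FPKM after OMV-SIRP-G and 3481, 3889 and 4201 FPKM after OMV-SIRP. The log2 change was -1.24 ± 0.13 (adjusted p = 0.00047), and PBS libraries had 1793, 2420 and 2555 FPKM.

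Orm1, an acute-phase lipocalin, fell by 1.25 on the log2 scale, with 9.36, 10.2 and 6.48 FPKM after OMV-SIRP-G and 21.6, 22.6 and 20.8 FPKM after OMV-SIRP. Bnip3, a mitochondrial receptor for mitophagy, had 51.2, 50.6 and 51.4 FPKM after OMV-SIRP-G, 101, 98.9 and 96.2 FPKM after OMV-SIRP and 48.9, 56.0 and 53.4 FPKM after PBS. OMV-SIRP-G and PBS values thus lay together, and the log2 change was -0.94 ± 0.05 (adjusted p = 2.4e-05). Fam162a (-0.95), Tpi1 (-0.88) and Ankrd37 (-0.82), which also belong to the glycolytic or hypoxia-response lists, fell alike. The others of the set were Selenbp1 (-0.92), Prelid2 (-0.88), Fcnb (-0.88), Wfdc21 (-0.85), Clybl (-0.79), Cib2 (-0.77), Cd177 (-0.76) and Ffar2 (-0.75). Prelid2 and Cib2 lost their call when 1 library was left out, with an adjusted p of up to 0.0951 for Prelid2 and 0.0701 for Cib2.

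**Figure D2:**
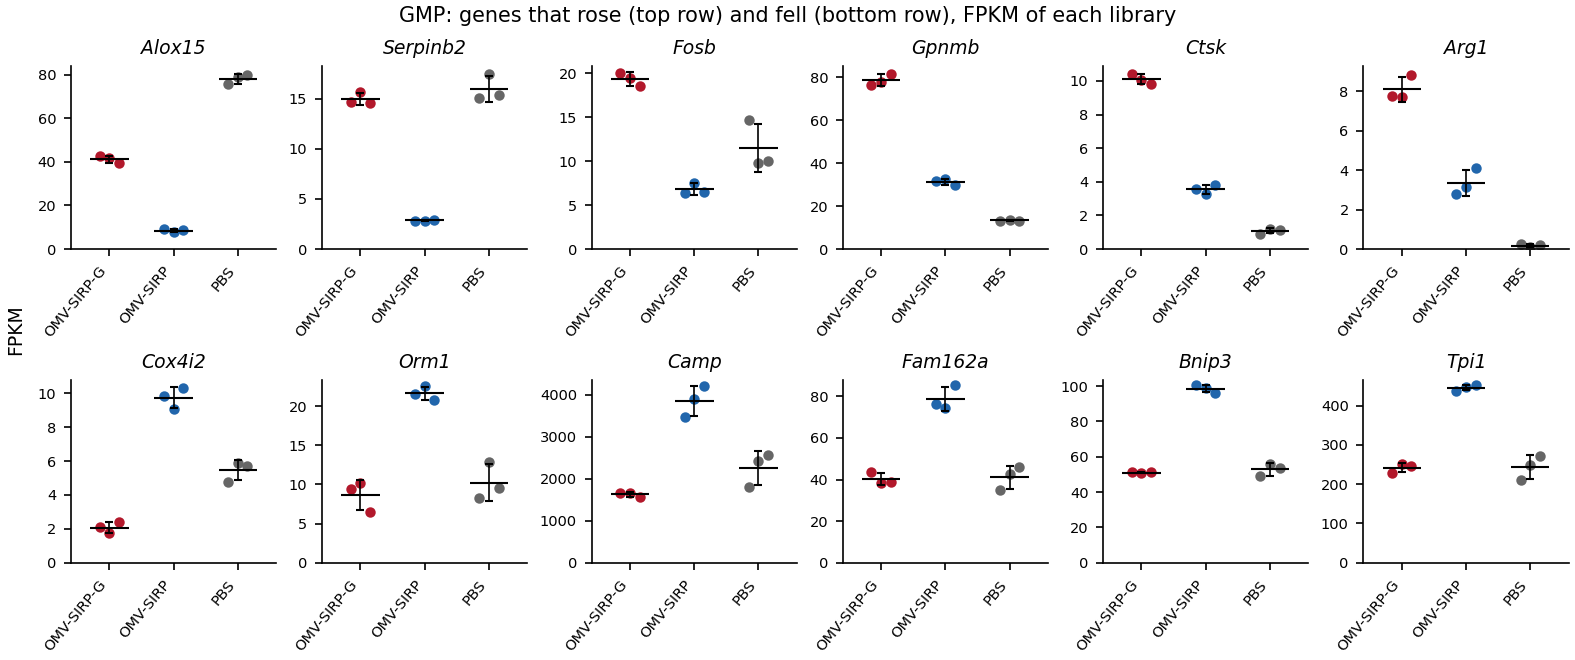
FPKM (vertical, from 0, each panel with its own scale) of 6 genes that rose and 6 that fell after OMV-SIRP-G, in the 3 OMV-SIRP-G, 3 OMV-SIRP and 3 PBS libraries of GMP. Points are libraries, the long bar is the mean and the whiskers are 1 SD; Gpnmb, Ctsk and Arg1 step down from OMV-SIRP-G through OMV-SIRP to PBS, whereas Bnip3 and Tpi1 have like levels after OMV-SIRP-G and PBS.

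Glycolysis splits glucose into pyruvate, and many of its enzymes, like the other hypoxia-response genes, are targets of the transcription factor Hif1a. Promoters of the genes of these lists with the lowest adjusted p are shown because the members fell together. The sequences are the 250 bases before the transcription start in RefSeq, build GRCm38.p6, written 5′ to 3′ on the gene's strand: Bnip3 at chr7:138909507-138909756 (minus strand), Pfkp at chr13:6648772-6649021 (minus strand) and P4ha1 at chr10:59323046-59323295 (plus strand). Capitals mark ACGTG or its reverse complement CACGT, a form of the core of the hypoxia response element.
Bnip3: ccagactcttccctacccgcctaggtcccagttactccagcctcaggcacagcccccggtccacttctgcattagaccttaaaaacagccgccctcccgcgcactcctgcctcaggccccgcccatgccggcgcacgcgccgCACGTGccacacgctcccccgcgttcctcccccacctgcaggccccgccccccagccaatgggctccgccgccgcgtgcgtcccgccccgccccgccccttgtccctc
Pfkp: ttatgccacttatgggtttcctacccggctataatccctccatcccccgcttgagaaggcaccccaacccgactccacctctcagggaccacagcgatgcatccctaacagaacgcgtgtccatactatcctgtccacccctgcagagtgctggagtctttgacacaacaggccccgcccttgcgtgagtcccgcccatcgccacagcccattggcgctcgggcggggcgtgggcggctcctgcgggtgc
P4ha1: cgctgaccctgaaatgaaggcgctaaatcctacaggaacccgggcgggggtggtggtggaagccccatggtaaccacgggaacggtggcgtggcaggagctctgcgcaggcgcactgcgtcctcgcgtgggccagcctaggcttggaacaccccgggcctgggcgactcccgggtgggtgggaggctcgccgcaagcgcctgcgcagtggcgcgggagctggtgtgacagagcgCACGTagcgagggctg
The capitals in Bnip3 are 2 overlapping matches, those in P4ha1 are 1, and Pfkp has none. The other form of the core, GCGTG or CACGC, which was not capitalised, occurred 3 times in Bnip3, 3 times in Pfkp and 2 times in P4ha1. Of the 32 promoters found for the 37 genes of both lists that fell, 16 held ACGTG on either strand, against 22.7% of 8525 promoters of genes tested and 16.6% of all 32851 promoters of the table. GCGTG was held by 59.4% of the 32, 46.4% of those of genes tested and 28.2% of all. Among all genes called lower, 25.5% held ACGTG and 46.7% GCGTG. The shares were 36.8% and 47.4% of 19 promoters for immediate-early genes, and 26.3% and 52.6% of 19 for mitotic genes. The glycolysis and hypoxia-response lists consist of genes known to respond to this pathway, so the shares describe the lists and say nothing of what binds there.

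Of 22 glycolytic genes tested, 17 fell, none rose, and the list's median log2 change was -0.52, against 8.12% of all genes lower and a median of -0.01. Summed FPKM of the list ran from 3923 to 4203 in OMV-SIRP-G libraries, from 6129 to 6203 in OMV-SIRP libraries and from 3758 to 4474 in PBS libraries. Pgk1, the kinase that makes the first ATP of the pathway (chromosome X, 106187100 to 106203699, plus strand), had 554, 559 and 564 FPKM after OMV-SIRP-G and 934, 912.5 and 918 FPKM after OMV-SIRP. All OMV-SIRP libraries were above all others, since PBS libraries had 580, 644 and 658 FPKM, and the log2 change was -0.72 ± 0.07 (adjusted p = 0.0002).

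The glucose transporter Slc2a1 had 25.5, 27.6 and 26.8 FPKM after OMV-SIRP-G and 40.9, 38.5 and 41.2 FPKM after OMV-SIRP, a log2 change of -0.57 ± 0.05 (adjusted p = 0.00018). Pfkp, the platelet-type phosphofructokinase, fell by 0.59, and Pdk1, which keeps pyruvate from the mitochondria by phosphorylating pyruvate dehydrogenase, fell by 0.63. Aldoa (aldolase), Ldha (lactate dehydrogenase) and the lactate exporter Slc16a3 fell by 0.72, 0.67 and 0.63. Hk1 (-0.20), Pfkm (-0.19), Slc2a3 (-0.12), Pfkfb3 (-0.07) and Gapdh (1.15) did not pass. Gapdh, whose processed pseudogenes share its reads, varied within groups more than between them, with 55.1, 50.8 and 31.9 FPKM after OMV-SIRP-G and 8.92, 8.96 and 87.7 FPKM after OMV-SIRP, and is not informative here.

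Among 26 hypoxia-response genes, 20 fell and 1 rose, with a median log2 change of -0.46. The gene that rose was Hif1a itself, the oxygen-regulated subunit, with 23.8, 24.2 and 24.4 FPKM after OMV-SIRP-G and 18.7, 17.4 and 16.2 FPKM after OMV-SIRP (log2 change 0.45 ± 0.06, adjusted p = 0.0014). Its groups did not overlap, and PBS libraries had 18.8, 19.8 and 17.6 FPKM. Egln3 and Egln1, the prolyl hydroxylases that mark the Hif1a protein for degradation, fell by 0.50 and 0.55, and Vhl, which recognises that mark, fell by 0.30. P4ha1, a collagen prolyl hydroxylase, had 35.5, 36.2 and 35.4 FPKM after OMV-SIRP-G and 53.5, 54.1 and 51.7 FPKM after OMV-SIRP. Higd1a (-0.27), Car9 (-0.19), Plod1 (-0.04), Arnt (-0.02) and Vegfa (0.08) did not pass. Leaving out each of the 9 libraries in turn kept 15 to 18 glycolytic genes and 19 to 21 hypoxia-response genes lower.

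All 22 mitotic genes tested fell, with a median log2 change of -0.51, and 21 to 22 remained lower when each library was left out. Summed FPKM of the list was 482.9 to 490.2 in OMV-SIRP-G libraries, 701.5 to 708.6 in OMV-SIRP libraries and 463.6 to 478.1 in PBS libraries. Tpx2, which assembles spindle microtubules, had 21.5, 21.8 and 21.6 FPKM after OMV-SIRP-G, against 31.4, 30.5 and 32.0 FPKM after OMV-SIRP. PBS libraries had 21.6, 21.2 and 22.04 FPKM, which overlapped the values after OMV-SIRP-G, and the log2 change between the treatments was -0.51 ± 0.04 (adjusted p = 0.0001). Top2a, the topoisomerase that untangles chromosomes, fell by 0.55, Cdc20, an activator of the anaphase-promoting complex, by 0.57, and cyclin Ccnb2 by 0.61. Mki67, the antigen used to count dividing cells, averaged 47.2 ± 0.81 FPKM after OMV-SIRP-G and 68.0 ± 1.5 FPKM after OMV-SIRP (SD, n = 3 each), and fell by 0.52 (adjusted p = 0.001).

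Genes of DNA replication moved less. Of 23 tested, 11 fell, none rose, and the median log2 change was -0.17; the count was 6 when scaled to total reads and 4 to 13 when a library was left out. DNA ligase Lig1 fell by 0.49, with 15.1, 16.1 and 16.1 FPKM after OMV-SIRP-G and 22.9, 23.2 and 21.2 FPKM after OMV-SIRP. Pcna, the sliding clamp, averaged 75.5 FPKM after OMV-SIRP-G and 77.2 FPKM after OMV-SIRP and did not pass, nor did Mcm3 (-0.14), Mcm4 (-0.11) and Mcm6 (-0.07) of the replicative helicase. Of 10 cell cycle inhibitors tested, 5 fell and none rose. They were Ccng2, which fell by 0.44, and the cyclin-dependent kinase inhibitors Cdkn2c, Cdkn2d, Cdkn1b and Cdkn1a, which fell by 0.38, 0.36, 0.29 and 0.19. Cdkn1a lost its call under total-read scaling (adjusted p = 0.13).

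Immediate-early genes, which are transcribed within minutes of a stimulus without new protein synthesis, rose as a group. Of 23 tested, 20 were higher after OMV-SIRP-G and none lower, with a median log2 change of 0.62, against 6.7% of all genes higher; 18 to 22 were higher when each library was left out. Summed FPKM ran from 1543 to 1634 in OMV-SIRP-G libraries, 1050 to 1074 in OMV-SIRP libraries and 1010 to 1146 in PBS libraries. Fosb, a partner of Jun in AP-1, had 20.02, 19.5 and 18.5 FPKM after OMV-SIRP-G and 6.38, 7.57 and 6.44 FPKM after OMV-SIRP, a log2 change of 1.39 ± 0.13 (adjusted p = 0.00035). The zinc finger factor Egr1 had 111, 105 and 105 FPKM after OMV-SIRP-G and 51.1, 50.1 and 47.8 FPKM after OMV-SIRP. Both genes belong to the 15 largest rises, for which no overlap of these groups was a condition.

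Egr3 and Egr2 of the same family rose by 1.34 and 1.14, and Egr3 had 4.64, 4.42 and 3.69 FPKM after OMV-SIRP-G and 1.14, 1.10 and 0.97 FPKM after OMV-SIRP. Fos, Jun and Junb rose by 0.69, 0.53 and 0.58, and the stress-responsive factor Atf3 by 1.00. Phosphatases that switch off MAP kinases were among them, with Dusp5 up by 1.17, Dusp2 by 0.81 and Dusp1 by 0.62. Zfp36, which destabilises cytokine messages, rose by 0.65. Myc (0.22), Ier3 (0.17) and Maff (0.04) did not pass. Of 15 heat shock genes 6 rose and none fell, with a median of -0.00, and 2 to 6 were higher when 1 library was left out. The inducible chaperone Hspa1a had 5.94, 5.18 and 6.08 FPKM after OMV-SIRP-G and 2.84, 3.22 and 2.68 FPKM after OMV-SIRP, and shares reads with its near-identical copy Hspa1b.

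Of 28 genes of Toll-like receptor and NF-kB signalling, 14 rose and 2 fell (median 0.29). Il1b, the precursor of interleukin-1 beta, had 16.02, 14.3 and 12.1 FPKM after OMV-SIRP-G, 5.87, 5.67 and 6.63 FPKM after OMV-SIRP and 2.15, 2.73 and 2.95 FPKM after PBS, a log2 change of 1.09 ± 0.11 (adjusted p = 0.00037). Ptgs2, the inducible cyclooxygenase, rose by 0.99, the inflammasome sensor Nlrp3 by 0.63 and the receptor Tlr2 by 0.50. The genes lower in this list were Nfkbia and Irak3, at -0.18 and -0.30, and neither call was stable. Nfkbia had an adjusted p of 0.26 under total-read scaling and 0.077 with the replicate block, and Irak3 reached 0.0696 with 1 library left out. In the same list Tnf (0.08), Nfkb1 (-0.05), Relb (-0.00) and Myd88 (-0.03) did not pass. Of 19 chemokine and chemokine receptor genes, 11 rose and none fell (median 0.30), and 7 to 12 were higher with 1 library left out. Ccl3, which attracts monocytes and other leukocytes, had 174, 162 and 162 FPKM after OMV-SIRP-G, 82.8, 81.0 and 80.1 FPKM after OMV-SIRP and 122, 131 and 130 FPKM after PBS. It was highest after OMV-SIRP-G in every library, and its log2 change was 1.02 ± 0.05 (adjusted p = 9.4e-06). Ccl4 rose by 1.04, Ccl6 by 0.71 and the neutrophil chemoattractant Cxcl2 by 0.68, while Cxcr4, which retains progenitors in marrow, had a log2 change of -0.19 that did not pass.

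**Figure D3:**
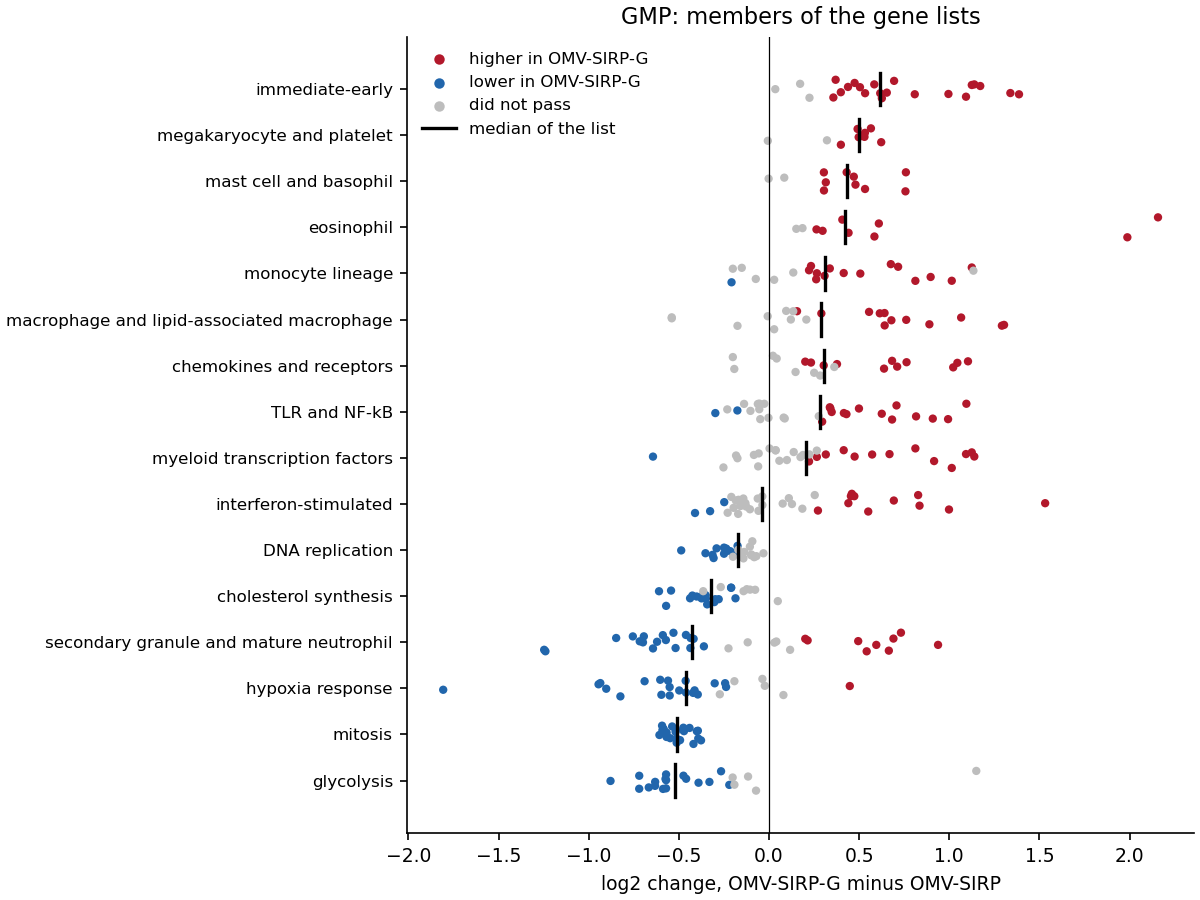
Log2 change of OMV-SIRP-G minus OMV-SIRP in GMP (horizontal) for the tested members of 16 gene lists (rows). Each point is a gene, red where it rose after OMV-SIRP-G, blue where it fell and grey where it did not pass, and the black bar is the median of the list; all mitotic genes lie left of 0, and the secondary granule and mature neutrophil list holds both 18 that fell and 9 that rose.

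Neutrophil genes moved in both directions. Of 32 secondary granule and mature neutrophil genes tested, 18 fell and 9 rose, with a median log2 change of -0.43. With 1 library left out, 15 to 20 were lower and 5 to 8 higher. Those that fell included contents of secondary granules, such as Ltf and Ngp, and other genes of the list. Ltf, the iron-binding lactoferrin, had 1264, 1329 and 1381 FPKM after OMV-SIRP-G, 2147, 2129 and 2149 FPKM after OMV-SIRP and 1036, 1069 and 1130 FPKM after PBS, a log2 change of -0.69 ± 0.07 (adjusted p = 0.00032). Ngp fell by 0.70, Cd177 by 0.76, S100a8 by 0.62 and S100a9 by 0.72. When 1 library was left out, the adjusted p reached 0.0532 for S100a9 and 0.122 for S100a8. Cebpe, the factor that drives secondary granule genes, averaged 204.7 ± 5.4 FPKM after OMV-SIRP-G and 320.5 ± 17.4 FPKM after OMV-SIRP (SD, n = 3 each) and fell by 0.64 (adjusted p = 0.00063).

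The 9 that rose included granule metalloproteases and receptors of mature neutrophils. Mmp8, the neutrophil collagenase, had 179, 188 and 186 FPKM after OMV-SIRP-G, 116, 112 and 105 FPKM after OMV-SIRP and 30.9, 33.1 and 34.2 FPKM after PBS, a log2 change of 0.73 ± 0.06 (adjusted p = 0.0001). Mmp9, the gelatinase, rose by 0.66, Fpr1, a receptor for formylated bacterial peptides, by 0.94, Retnlg by 0.60 and the chemokine receptor Cxcr2 by 0.20. Stfa2, Stfa3 and Stfa2l1 also rose, but these stefins are near-identical copies that share reads. The calls of Retnlg, Cxcr2, Stfa2 and Stfa3 were lost when 1 library was left out, with adjusted p-values of up to 0.0517, 0.108, 0.129 and 0.0517. Summed FPKM of the whole list was 50180 to 51310 in OMV-SIRP-G libraries, 75450 to 77870 in OMV-SIRP libraries and 37520 to 51250 in PBS libraries. Primary granule genes moved little, with 1 of 12 higher and 2 lower, against 6.7% and 8.12% of all genes tested. Fcnb fell by 0.88 and Serpinb1a by 0.55, while Gstm1 rose by 0.42. Mpo (0.07), Elane (0.08), Prtn3 (-0.10) and Ctsg (-0.06) did not pass.

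Of 21 monocyte lineage genes tested, 14 rose and 1 fell (median 0.31). Of 21 macrophage genes 12 rose and none passed as lower (median 0.29). Mrc1 is counted in the 12, although it reached 1 FPKM only in the OMV-SIRP-G libraries. C1qb and C1qc of the macrophage list had log2 changes of -0.54 each that did not pass (adjusted p = 0.065 and 0.056 in limma). Axl, at -0.17, did not pass either. Ctss, a cathepsin of antigen-presenting cells, had 214, 212 and 209 FPKM after OMV-SIRP-G, 110, 114 and 116 FPKM after OMV-SIRP and 62.1, 74.4 and 68.4 FPKM after PBS (log2 change 0.90 ± 0.07, adjusted p = 7.1e-05). The groups stood in that order in every library. Klf4 and Irf8, factors of monocytic commitment, rose by 1.01 and 0.27. Adgre1, which encodes the F4/80 antigen, rose by 0.89, Cd68 by 0.76, the fatty acid carrier Fabp5 by 1.07 and Trem2, a lipid-sensing receptor, by 0.64. Ly6c2 (-0.07), Csf1r (0.13), F13a1 (-0.15) and Lgals3 (0.03) did not pass, and the gene of the monocyte list that fell was Itgam, by 0.21, a call lost under total-read scaling (adjusted p = 0.089).

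Of the 29 macrophage genes listed, 8 lay under 1 FPKM in all 6 libraries, among them Cd5l, Timd4, Marco and Siglec1. Others were well above that level, such as the adhesion molecule Vcam1, which averaged 28.8 FPKM after OMV-SIRP-G and 25.7 FPKM after OMV-SIRP. Summed FPKM of the monocyte list was 1790 to 1851 in OMV-SIRP-G libraries, 1643 to 1709 in OMV-SIRP libraries and 1371 to 1567 in PBS libraries. That of the macrophage list was 1031 to 1040 in OMV-SIRP-G libraries, 840.6 to 873.1 in OMV-SIRP libraries and 635.9 to 780.2 in PBS libraries. The part of cell composition in the other gene groups was not tested.

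Genes of other lineages were also higher after OMV-SIRP-G than after OMV-SIRP. Of 10 eosinophil genes 8 rose (median 0.42), of 11 mast cell and basophil genes 9 rose (0.43), and of 9 megakaryocyte and platelet genes 7 rose (0.50), with no member of these lists lower. Ccr3, the eotaxin receptor, had 8.37, 7.47 and 7.54 FPKM after OMV-SIRP-G, 1.34, 1.09 and 1.21 FPKM after OMV-SIRP and 5.07, 6.27 and 5.10 FPKM after PBS, a log2 change of 1.99 ± 0.08 (adjusted p = 3.0e-06). The most abundant eosinophil gene, the granule protein Prg2, averaged 2489 FPKM after OMV-SIRP-G and 2244 FPKM after OMV-SIRP and did not pass. Fcer1a, a chain of the high-affinity IgE receptor, rose by 0.76, Cpa3 by 0.43, the platelet integrin Itga2b by 0.49 and Gata1, a factor shared by these lineages, by 0.67. Ear1, Ear2 and Ear6 are close paralogues that share reads, and Ear6 lost its call when 1 library was left out (adjusted p of up to 0.142).

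Summed FPKM of eosinophil genes was 3188 to 3295 in OMV-SIRP-G libraries, 2661 to 2975 in OMV-SIRP libraries and 3992 to 5221 in PBS libraries. For mast cell and basophil genes it was 655.8 to 694.7 in OMV-SIRP-G libraries, 485.4 to 508.2 in OMV-SIRP libraries and 845.3 to 1013 in PBS libraries. The megakaryocyte count fell to 3 when a library was left out. Its list summed to 85.83 to 88.70 FPKM in OMV-SIRP-G libraries and 57.11 to 62.56 FPKM in OMV-SIRP libraries. Pf4 averaged 42.5 FPKM after OMV-SIRP-G and 29.1 FPKM after OMV-SIRP, Itga2b 20.7 and 14.4 FPKM, and Ppbp, next in level, 8.75 and 5.33 FPKM. Pf4 rose by 0.53, but lost its call when 1 library was left out (adjusted p of up to 0.0923). Tpsab1 and Mcpt4, which define mature mast cells, were listed at 0 or under 0.1 FPKM in every OMV-SIRP-G and OMV-SIRP library, as was the platelet gene Gp1bb. Of 14 early progenitor genes 4 rose, among them Myb by 0.24 and Flt3 by 0.43, and 1 fell, Erg by 0.46. With 1 library left out 2 to 4 were higher, and Myb reached an adjusted p of 0.087. Kit (0.04), Cd34 (-0.03), Gfi1 (-0.06) and Cebpa (0.10) did not pass.

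Of 30 myeloid transcription factors tested, 13 rose and 1 fell (median 0.21). The gene that fell was Cebpe, and Id3, an inhibitor of basic helix-loop-helix factors, rose by 0.92. Spi1 (-0.06), Runx1 (0.04) and Cebpb (0.17), which establish or maintain myeloid identity, did not pass. Among 22 growth factor and cytokine receptor genes 8 rose and 2 fell, with 4 to 11 higher when 1 library was left out. Csf1, the macrophage growth factor, had 11.2, 10.7 and 10.6 FPKM after OMV-SIRP-G, 5.40, 5.17 and 5.77 FPKM after OMV-SIRP and 17.96, 14.7 and 13.7 FPKM after PBS, so it rose by 0.88 and yet stayed under the PBS level. The receptors Csf2ra (0.27) and Csf3r (0.20) did not pass, and the decoy receptor Il1r2 fell by 0.42.

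**Figure D4:**
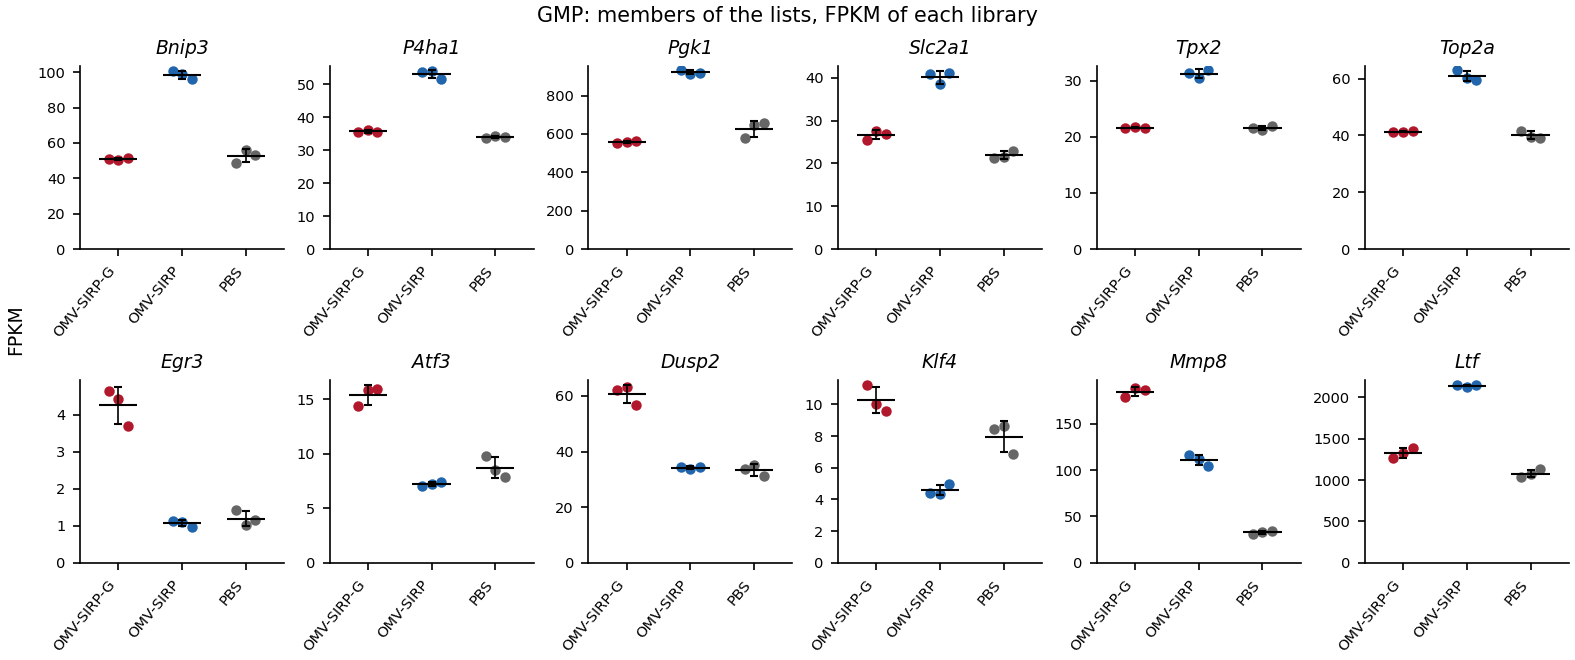
FPKM (vertical, from 0, each panel with its own scale) of 12 members of the hypoxia-response, glycolysis, mitosis, immediate-early, myeloid transcription factor and neutrophil lists in the 3 OMV-SIRP-G, 3 OMV-SIRP and 3 PBS libraries of GMP. Points are libraries, long bars means and whiskers 1 SD; for Bnip3, P4ha1, Pgk1, Tpx2 and Top2a the OMV-SIRP libraries stand above those of the other groups.

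Cholesterol synthesis was lower after OMV-SIRP-G: 17 of 24 genes fell and none rose, with a median log2 change of -0.32, but 9 passed when scaled to total reads and 9 to 18 with 1 library left out. Mvd, which makes isopentenyl diphosphate, had 28.2, 30.1 and 30.4 FPKM after OMV-SIRP-G, 40.5, 46.5 and 43.7 FPKM after OMV-SIRP and 34.98, 33.3 and 35.5 FPKM after PBS, a log2 change of -0.54 ± 0.06 (adjusted p = 0.00045). Fdft1, the squalene synthase, fell by 0.61 and Srebf2, the transcription factor of the pathway, by 0.37. OMV-SIRP-G libraries were the lowest of all groups for the list, at 312.6 to 323.7 summed FPKM, against 382.1 to 402.5 after OMV-SIRP and 372.7 to 384.7 after PBS. Of 12 genes of sterol export and the LXR receptors, 4 rose and 1 fell, with 1 to 4 higher and 1 to 3 lower when 1 library was left out. Among all genes tested, 6.7% were higher and 8.12% lower. Npc1, which releases cholesterol from lysosomes, rose by 0.42 and the desaturase Scd2 fell by 0.35.

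Lysosomal genes were higher in part, with 11 of 26 up, none down and a median of 0.11. Besides Ctsk and Ctss, the cathepsins Ctsl, Ctsb and Ctsd rose by 0.49, 0.35 and 0.37, whereas Lamp1 (0.08), Lamp2 (0.09) and Tfeb (-0.07), the regulator of lysosomal genes, did not pass. Of 20 iron and antioxidant genes 8 rose and 2 fell. Slc11a1, the metal transporter of phagosomes that limits bacterial growth, had 14.0, 14.2 and 15.4 FPKM after OMV-SIRP-G and 6.78, 7.47 and 7.05 FPKM after OMV-SIRP, a log2 change of 0.94 ± 0.07 (adjusted p = 6.0e-05). Fth1, the ferritin heavy chain, rose by 0.61. Hmox1, the haem oxygenase, averaged 83.3 FPKM after OMV-SIRP-G and 84.3 FPKM after OMV-SIRP and did not pass.

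Genes of arginine and polyamine metabolism rose in 5 of 12 cases, none falling, and in 2 to 5 with 1 library left out. Odc1, which starts polyamine synthesis from ornithine, had 37.5, 37.6 and 36.9 FPKM after OMV-SIRP-G and 22.8, 22.3 and 21.6 FPKM after OMV-SIRP, a log2 change of 0.72 ± 0.05 (adjusted p = 5.4e-05). Nos2, the inducible nitric oxide synthase that competes with arginases for arginine, was low, at 3.57, 3.27 and 2.97 FPKM after OMV-SIRP-G and 2.25, 2.18 and 2.39 FPKM after OMV-SIRP. It rose by 0.38 (adjusted p = 0.012), but the adjusted p reached 0.0563 when 1 library was left out. Mrc1, the mannose receptor, was lower still, at 1.47 FPKM after OMV-SIRP-G and 0.614 FPKM after OMV-SIRP. It reached 1 FPKM only in the OMV-SIRP-G libraries and so entered the test through the group where it was high, which makes its call uninformative. Cd86 averaged 1.15 FPKM after OMV-SIRP-G and 0.641 FPKM after OMV-SIRP and did not reach 1 FPKM in enough libraries to be tested.

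Of 19 genes of Fc gamma receptors and phagocytosis 7 fell and 1 rose (median -0.14). Cybb, the catalytic subunit of the oxidase, had 189, 191 and 204 FPKM after OMV-SIRP-G, 274, 271 and 262 FPKM after OMV-SIRP and 219, 234 and 227 FPKM after PBS, a log2 change of -0.46 ± 0.05 (adjusted p = 0.00067). Its partners Ncf1, Ncf4 and Cyba fell by 0.40, 0.33 and 0.37, though Cyba lost its call under total-read scaling (adjusted p = 0.0506) and with 1 library left out (up to 0.12). The gene that rose was Fcgr1, the high-affinity IgG receptor, by 0.72. Complement C3 fell by 0.46. The integrin Itgam fell by 0.21, but its adjusted p was 0.089 under total-read scaling.

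The treatment names carry the letters SIRP, and the labels do not say which protein is meant. The gene Sirpa differed little between the treatments. Sirpa had 85.5, 91.5 and 94.1 FPKM after OMV-SIRP-G, 77.5, 82.4 and 77.8 FPKM after OMV-SIRP and 91.7, 90.1 and 91.7 FPKM after PBS. The log2 change of 0.19 ± 0.05 passed (adjusted p = 0.037), but reached 0.129 in adjusted p when 1 library was left out. Cd47 averaged 101 FPKM after OMV-SIRP-G and 108 FPKM after OMV-SIRP, with a log2 change of -0.08 ± 0.04 that did not pass (adjusted p = 0.23). In the list of these and other inhibitory receptors 6 of 17 rose and 4 fell, with 3 to 8 higher when 1 library was left out. Cd274, the ligand PD-L1, rose by 0.58, Siglece and Pilra fell by 0.42 and 0.49, and Ptpn6, the phosphatase recruited by such receptors, fell by 0.26, with an adjusted p of up to 0.0553 when 1 library was left out.

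Interferon-stimulated genes were mixed, with 11 of 35 higher and 3 lower (median -0.04), the second count being 1 to 4 with 1 library left out. Those that rose were low in level: Rtp4 had 5.34, 4.76 and 5.19 FPKM after OMV-SIRP-G, 1.83, 2.27 and 2.06 FPKM after OMV-SIRP and 6.34, 6.90 and 6.84 FPKM after PBS, a log2 change of 1.00 ± 0.07 (adjusted p = 6.0e-05). Ifit3 averaged 2.601 FPKM after OMV-SIRP-G and 0.241 FPKM after OMV-SIRP and rose by 1.53, and Irf7 rose by 0.55. Gbp2 and Cmpk2 were among those that fell, by 0.41 and 0.25, each losing its call when 1 library was left out (adjusted p of up to 0.0633 for Gbp2 and 0.0766 for Cmpk2), and the more abundant Ifitm2 (-0.17), Ifitm3 (-0.21) and Bst2 (-0.23) did not pass. MHC class II genes rose in 2 of 9 cases, Cd74 by 0.55 and H2-Aa by 0.45, the second with an adjusted p of up to 0.0518 with 1 library left out. Of 7 dendritic cell genes 2 rose, Ccr7 by 1.02 and Flt3, and Clec10a fell by 0.21, though not under total-read scaling (adjusted p = 0.082).

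Of 13 genes of the mitochondrial chromosome 7 rose and none fell (median 0.41), and the share of reads from that chromosome was 1.28% to 1.30% in OMV-SIRP-G libraries and 0.912% to 0.979% in OMV-SIRP libraries. The part of RNA quality in this difference was not tested. Subunit mt-Nd5 of complex I had 670.5, 668 and 691 FPKM after OMV-SIRP-G and 474, 439 and 438 FPKM after OMV-SIRP (log2 change 0.59 ± 0.06, adjusted p = 0.00035), while PBS libraries had 642, 662 and 626 FPKM. The neighbouring mt-Nd6 lies on the opposite strand, and its reads could not be separated by strand from what is stated. The count fell to 3 when 1 library was left out. Of 53 nuclear-encoded respiratory chain genes 3 fell and none rose (median -0.14), against 8.12% of all genes lower, although 1 to 20 were lower with a library left out. None of 80 cytosolic ribosomal protein genes passed in limma with all libraries (median -0.17), although up to 36 were lower with a library left out.

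The remaining lists gave smaller counts. Of 18 unfolded protein response genes 4 rose, such as Herpud1 (0.37) and Dnajb9 (0.38), and none fell. The count was 8 when scaled to total reads and 2 to 7 with 1 library left out. Of 16 genes of amino acid stress 3 rose and 4 fell, with the target Chac1 down by 0.57 and the cystine transporter Slc7a11 up by 0.50. Eicosanoid synthesis held Alox15, Pla2g7 and Ptgs2, which rose, and Lta4h and Ptgs1, which fell by 0.37 and 0.26, the second not under total-read scaling (adjusted p = 0.083), while Alox5 (-0.13) did not pass. Plasminogen and coagulation genes split into 4 higher, including Serpinb2 and coagulation factor F7 (0.93), and 4 lower, including F10 (-0.34) and Anxa2 (-0.42), with 2 to 6 lower when 1 library was left out. Of 6 erythroid genes tested Gata1 rose and Car2 fell by 0.35, though not under total-read scaling (adjusted p = 0.081). Of 8 B lineage genes Ighm alone rose, by 0.29, and of 3 T and NK genes Il7r (0.83) and Gzmb (0.43) rose.

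The change between OMV-SIRP-G and OMV-SIRP in GMP differed from that in bone marrow monocytes, which are described by 3 libraries of each treatment in the same table. A test of the difference itself, as an interaction in limma over all 18 GMP and monocyte libraries, found it for 1439 of 13337 genes (10.8%). The difference, GMP change minus monocyte change, was positive for 639 of them and negative for 800. The count of 1439 fell to between 973 and 1137 when 1 OMV-SIRP-G or OMV-SIRP library was left out. It was 1620 under total-read scaling. PBS libraries were not left out of this fit. Glycolytic genes differed in 18 of 22 cases with a median of -0.85, hypoxia-response genes in 18 of 26 (-0.98), mitotic genes in 16 of 22 (-0.66), cholesterol genes in 12 of 24 (-0.66) and immediate-early genes in 12 of 23 (0.60). The median difference of macrophage genes was 0.81, with 14 of 21 differing.

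Among protein-coding genes with a mean of at least 5 FPKM over the 12 compared libraries, Gpnmb showed the largest positive difference, 2.99 ± 0.10 (SE, adjusted p = 2.7e-10). In monocytes it had 22.1, 23.4 and 22.6 FPKM after OMV-SIRP-G and 74.5, 74.0 and 76.4 FPKM after OMV-SIRP, the opposite order from GMP, where it averaged 78.8 FPKM after OMV-SIRP-G and 31.3 FPKM after OMV-SIRP. The groups did not overlap in monocytes, and in GMP no overlap was a condition of the largest rises. Dusp2 (2.08), Ctsk (2.02) and Trem2 (1.90) were likewise higher after OMV-SIRP-G in GMP and lower in monocytes, where Trem2 averaged 15.9 FPKM after OMV-SIRP-G and 39.4 FPKM after OMV-SIRP. Mgl2, a galactose-binding lectin, had a difference of 2.07, and in monocytes had 6.96, 6.89 and 7.07 FPKM after OMV-SIRP-G and 32.7, 31.5 and 32.3 FPKM after OMV-SIRP. In GMP it averaged 43.6 FPKM after OMV-SIRP-G and 43.3 FPKM after OMV-SIRP and did not pass (0.01).

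In the same set, the largest negative differences belonged to Ccl5 (-3.25), Nos2 (-2.63), Tgm1 (-2.06), Ero1l (-2.05) and Selenbp1 (-2.04). Ccl5, a chemokine for T cells, averaged 13.6 FPKM after OMV-SIRP-G and 8.41 FPKM after OMV-SIRP in GMP. In monocytes it averaged 325.5 FPKM after OMV-SIRP-G and 21.2 FPKM after OMV-SIRP, so its values were higher after OMV-SIRP-G in both cell types and the gap was wider in monocytes. Nos2 showed the same order, with 66.0 FPKM after OMV-SIRP-G and 7.31 FPKM after OMV-SIRP in monocytes. Ero1l, an oxidoreductase of the endoplasmic reticulum induced by hypoxia, averaged 88.2 FPKM after OMV-SIRP-G and 118 FPKM after OMV-SIRP in GMP. In monocytes the order was opposite, with 443.8 FPKM after OMV-SIRP-G and 142.6 FPKM after OMV-SIRP. Bnip3 differed by -1.75, with 279.6 FPKM after OMV-SIRP-G and 158.6 FPKM after OMV-SIRP in monocytes. Arg1 rose in GMP and did not pass the test of a difference (-0.30, adjusted p = 0.34), with 54.9 FPKM after OMV-SIRP-G and 20.6 FPKM after OMV-SIRP in monocytes.

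**Figure D5:**
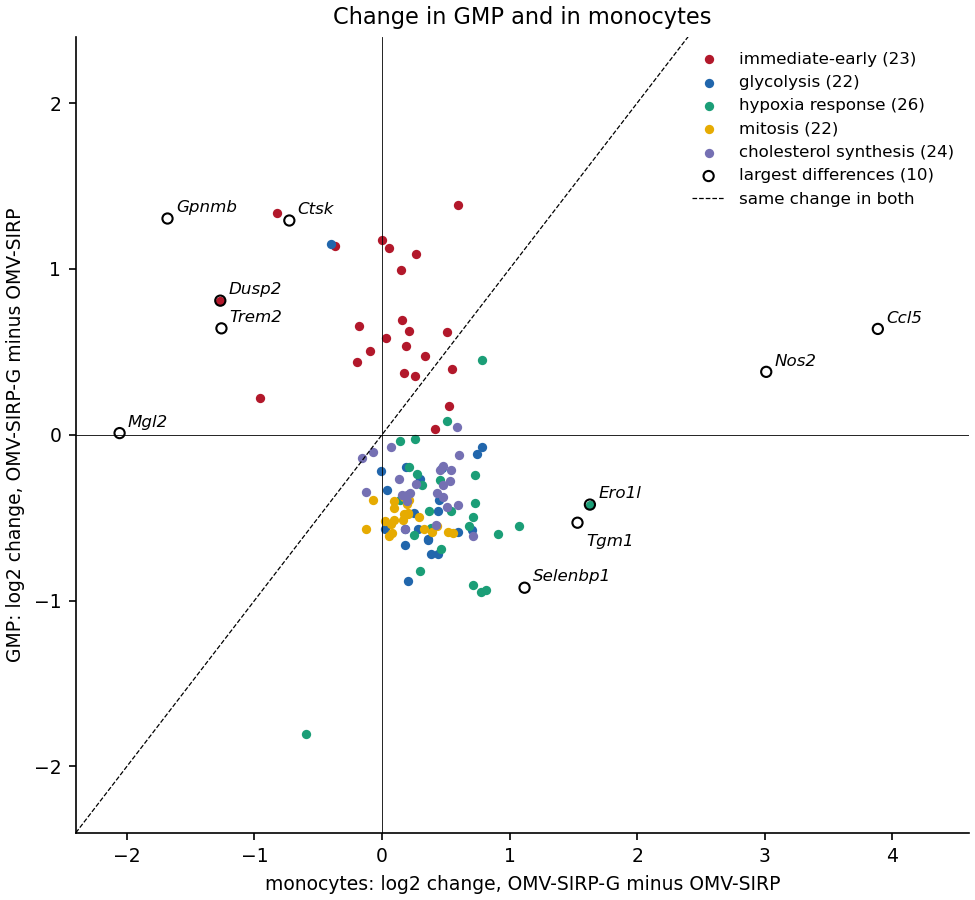
Log2 change of OMV-SIRP-G minus OMV-SIRP in monocytes (horizontal) against that in GMP (vertical) for members of 5 gene lists (coloured points) and the 5 largest positive and 5 largest negative differences among genes with a mean of at least 5 FPKM over the 12 compared libraries (open circles, named). The dashed line marks an equal change in both; Gpnmb lies at a positive change in GMP and a negative one in monocytes, and nearly all glycolytic, hypoxia-response and mitotic genes lie below the line.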

How the data were processed

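Bulk RNA sequencing values of GMP (3 groups of 3 libraries) and of monocytes were used, per the labels from TRIzol RNA and an NEBNext mRNA library kit. The deposited unit is FPKM per gene, made by the authors; the submitters' processing notes name build GRCm38, HISAT2 2.0.5, StringTie and featureCounts 1.5.0-p3. The role of each tool, its settings and whether counting used strand are not stated there. FPKM multiplied by gene length, divided by the value of 1 read, gave whole reads for 100.0% of values (tolerance 0.05), so depth could be read off at 15218182 to 19822660 reads in each library. The FPKM also carried a scaling between libraries.

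Genes with at least 1 FPKM in at least 3 libraries of a fit were tested by limma 3.58.1 (R 4.3.3, trend and robust options) on log2(FPKM + 1), with p-values adjusted by Benjamini-Hochberg over all genes tested and a threshold of 0.05. A fold on this scale understates the change of low genes. The spread came from all 9 GMP libraries, and the difference from monocytes was an interaction over 18 libraries. The fit was tested on simulated data with 200 changed genes, and the outcome is not reported here. The simulation had the same spread setting for all genes and no outlying library. It therefore does not cover a library such as PBS replicate 1. Alternatives were pseudocounts of 0.1 and 5, other filters, total-read and median-of-ratios scaling, voom on recovered reads and a replicate block. Others were the compared libraries alone (GMP only) and each library left out, except PBS libraries in the interaction.

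Genes named were the 15 largest rises and falls among protein-coding genes past the threshold with a mean of at least 5 FPKM and no overlap of the groups, list members, Sirpa, Cd47, Arg1, Nos2, Mrc1 and Cd86, and the 5 largest differences from monocytes in each direction among protein-coding genes past the threshold with a mean of at least 5 FPKM over the 12 compared libraries. The comparison, the gene lists and this rule were chosen with earlier results of these data known. Promoters are from RefSeq, and that of Cox4i2 is not shown. The tables of tumour samples were not used here. Some genes of the lists are counted but not reported here by name.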

Additional observations from a re-analysis of the deposited data

Results flagged for a closer look

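The change between OMV-SIRP-G and OMV-SIRP differed between GMP and monocytes for 1439 genes by an interaction test in limma. Those among the largest differences and the largest changes in GMP are given here, as the log2 change in GMP minus that in monocytes. Cd47 (-0.51, adjusted p = 0.00175) and Mrc1 (2.63, adjusted p = 4.5e-07) also differed. So did members of the gene lists that are not repeated here. Mrc1 reached 1 FPKM in GMP only after OMV-SIRP-G. In monocytes it averaged 0.532 FPKM after OMV-SIRP-G and 5.19 FPKM after OMV-SIRP. Among protein-coding genes with a mean of at least 5 FPKM over the 12 compared libraries, the largest positive differences were 2.99 for Gpnmb, 2.08 for Dusp2, 2.07 for Mgl2, 2.02 for Ctsk and 1.90 for Trem2, and the largest negative ones were -3.25 for Ccl5, -2.63 for Nos2, -2.06 for Tgm1, -2.05 for Ero1l and -2.04 for Selenbp1. Among the genes with the largest rises in GMP, the difference was 1.11 for Alox15, 1.20 for Serpinb2, 0.79 for Fosb, 0.51 for Pla2g7, 1.43 for Lgmn and 1.17 for Dusp5. It was 1.07 for Nr4a1, 0.98 for C3ar1, 2.10 for Anpep and 0.83 for Egr1. Il1b had a difference of -1.13. Among the largest falls, the difference was -1.21 for Cox4i2, -1.47 for Orm1, -1.60 for Camp, -1.72 for Fam162a, -1.75 for Bnip3 and -1.30 for Prelid2. It was -1.09 for Tpi1, -1.12 for Ankrd37, -1.35 for Clybl and -0.95 for Cd177.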

How the results depend on the processing

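With all libraries 823 genes were higher and 998 lower after OMV-SIRP-G. Lower genes numbered 656 with no filter on low values and 1520 in the 6 compared libraries alone, and total-read scaling gave 1337 higher and 604 lower. Leaving out 1 library gave 492 (without OMV-SIRP replicate 3) to 1114 (without PBS replicate 1) higher, 565 (without OMV-SIRP replicate 2) to 1602 (without PBS replicate 1) lower and 1068 to 2716 in all. The cause was not tested. Same-numbered OMV-SIRP-G and OMV-SIRP libraries had deviations from their group means that correlated at 0.093, 0.009 and 0.037. Same-numbered pairs with PBS libraries correlated at -0.020 to 0.223, and pairs of different number at -0.215 to 0.047. Not every same-numbered pair passed 0.1, so the numbers were not taken as pairs in the main fit. Whether libraries of the same number share a batch was not tested. With the replicate block, 1720 genes were called and 1000 differed from monocytes. Of 265 genes followed one by one, 207 kept their direction and side of the threshold under every alternative, including 28 of the 30 with the largest changes, and none reversed; the 10 named differences from monocytes held under all of theirs. The number of libraries, 3 in each group, limits the precision, with a median SE of 0.079 on the log2 scale.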
